A study of Oryza sativa with 6 samples.

Results

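JAZ proteins are repressors of jasmonate signalling, and 12 JAZ genes were read in rice roots, in the transgenic line Huahui 1 (HH1) and in Minghui 63 (MH63), the parent line without a transgene. They are the genes that carry, as a symbol or synonym in the gene tables, JAZ with one of 10 listed numbers. They make up 12 of the 17905 genes to which the array's probe sets were assigned singly, and 14 probe sets read them. Each genotype had 3 samples that the labels call biological replicates, with 1 Affymetrix rice array per sample. The HH1 plants are 1 transgenic line in the MH63 background, the MH63 plants are the control, and both were grown in nutrient solution in a climate chamber to an age of 30 days. The labels used here describe neither the inserted gene nor its promoter, and they do not say whether a replicate is 1 plant or a pool of plants. The series asked which genes and pathways differ in roots of HH1, as a clue to effects that were not intended.

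Jasmonate is a hormone of wounding, defence and development. In its absence JAZ proteins bind transcription factors such as MYC2 and recruit co-repressors through the adaptor NINJA. The active hormone, a conjugate of jasmonate with isoleucine, brings JAZ proteins to the receptor COI1, they are degraded, and the transcription factors are released. Many JAZ genes are themselves transcribed in response to jasmonate, so that the pathway restores its own repressors. JAZ proteins belong to the TIFY family, named after a short motif through which they bind NINJA and one another, and they also carry a Jas motif, through which they bind COI1 and MYC2.

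The JAZ numbers of rice follow more than 1 scheme, and the gene table lists several of them side by side. Of the 12 genes, 11 carried more than 1 JAZ number, and only TIFY11E carried a single number, OsJAZ13. The name OsJAZ3, for example, stood for TIFY6A and, in another scheme, for TIFY11A, whose values differed widely. For this reason the genes are called here by their TIFY names. By the number listed first, TIFY3 is OsJAZ1, TIFY6A is OsJAZ3, TIFY10A is OsJAZ6, TIFY10B is OsJAZ7, TIFY10C is OsJAZ8, TIFY11A is OsJAZ9, TIFY11B is OsJAZ10, TIFY11C is OsJAZ11, TIFY11D is OsJAZ12 and TIFY11E is OsJAZ13. TIFY9 (OsJAZ5) and TIFY6B (OsJAZ4) came in through a second number, OsJAZ11 and OsJAZ8.

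The signals are on a linear scale in array units, and a level is not compared between genes, since probe sets bind with different strength. All 14 probe sets lay above the level of foreign reporter probes on all 6 arrays and above the brightness limit of the test. The reporter level, the 95th percentile of these probes, was between 37.1 and 42.3 on an array. Fewer cells of a type and less RNA per cell cannot be told apart in such whole-root RNA. With 3 arrays a genotype, precision is limited by their number, and the labels name no batch.

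The 12 genes fell into 6 with a wide spread among the HH1 arrays and 6 with a narrow one. TIFY11A, TIFY11B, TIFY11C, TIFY11D, TIFY11E and TIFY9 were high in HH1 replicates 1 and 2, and their values in HH1 replicate 3 were near those of the MH63 arrays. TIFY10A and TIFY10C had the same order of arrays with smaller steps, and TIFY10B, TIFY3, TIFY6A and TIFY6B differed little between arrays. No JAZ gene passed the test between the genotypes, where 0.112% of all 28597 tested probe sets did, at an adjusted p under 0.05 in limma with Benjamini-Hochberg adjustment.

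The 5 TIFY11 genes form a subgroup of the family. TIFY11A, for which overexpression in rice has been linked to tolerance of salt and dehydration, had signals of 779, 685 and 96.0 in HH1 replicates 1, 2 and 3, against 95.6, 98.5 and 120 in MH63 replicates 1, 2 and 3. HH1 replicates 1 and 2 were far above every MH63 array, HH1 replicate 3 lay inside the MH63 range, and the groups overlapped. The log2 difference, HH1 minus MH63, was 1.83 with a standard error of 0.76, and the limma p was 0.047 before adjustment and 1.00 after it.

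TIFY11C gave 2459, 2261 and 605 in HH1, against 525, 685 and 717 in MH63. TIFY11E gave 1666, 1562 and 427 in HH1, against 458, 439 and 465 in MH63, which is the narrowest relative range of the MH63 arrays among the 6 genes of wide spread. In both genes HH1 replicates 1 and 2 stood apart from the other 4 arrays. The log2 difference was 1.23 ± 0.52 for TIFY11C and 1.19 ± 0.50 for TIFY11E (estimate ± standard error), with limma p of 0.050 and 0.049 before adjustment and 1.00 after it for each gene.

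TIFY11B was read by a pair of probe sets. The brighter, which can also bind related transcripts, gave 3128, 2588 and 1044 in HH1, against 1033, 1214 and 1488 in MH63. The other, specific by its name, gave 557, 504 and 201 in HH1, against 228, 241 and 247 in MH63. Both probe sets placed HH1 replicates 1 and 2 highest, and their log2 differences were close, 0.73 ± 0.40 and 0.69 ± 0.37 (estimate ± standard error). They differed in HH1 replicate 3, which was below all MH63 arrays in the specific probe set and inside the MH63 range in the shared one.

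TIFY11D gave 1711, 2052 and 694 in HH1, against 637, 1020 and 934 in MH63. Its MH63 arrays had the widest spread of the 12 genes, 0.68 on the log2 scale between the lowest and the highest. TIFY9, the only gene outside the TIFY11 set with a spread of this size in HH1, gave 815, 727 and 162 in HH1, against 223, 268 and 207 in MH63. In TIFY9 the third HH1 array was the lowest of all 6, by 0.51 on the log2 scale below the MH63 mean. The log2 differences were 0.67 ± 0.41 for TIFY11D and 0.99 ± 0.59 for TIFY9 (estimate ± standard error), and their limma p before adjustment were 0.151 and 0.139.

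**Figure D1:**
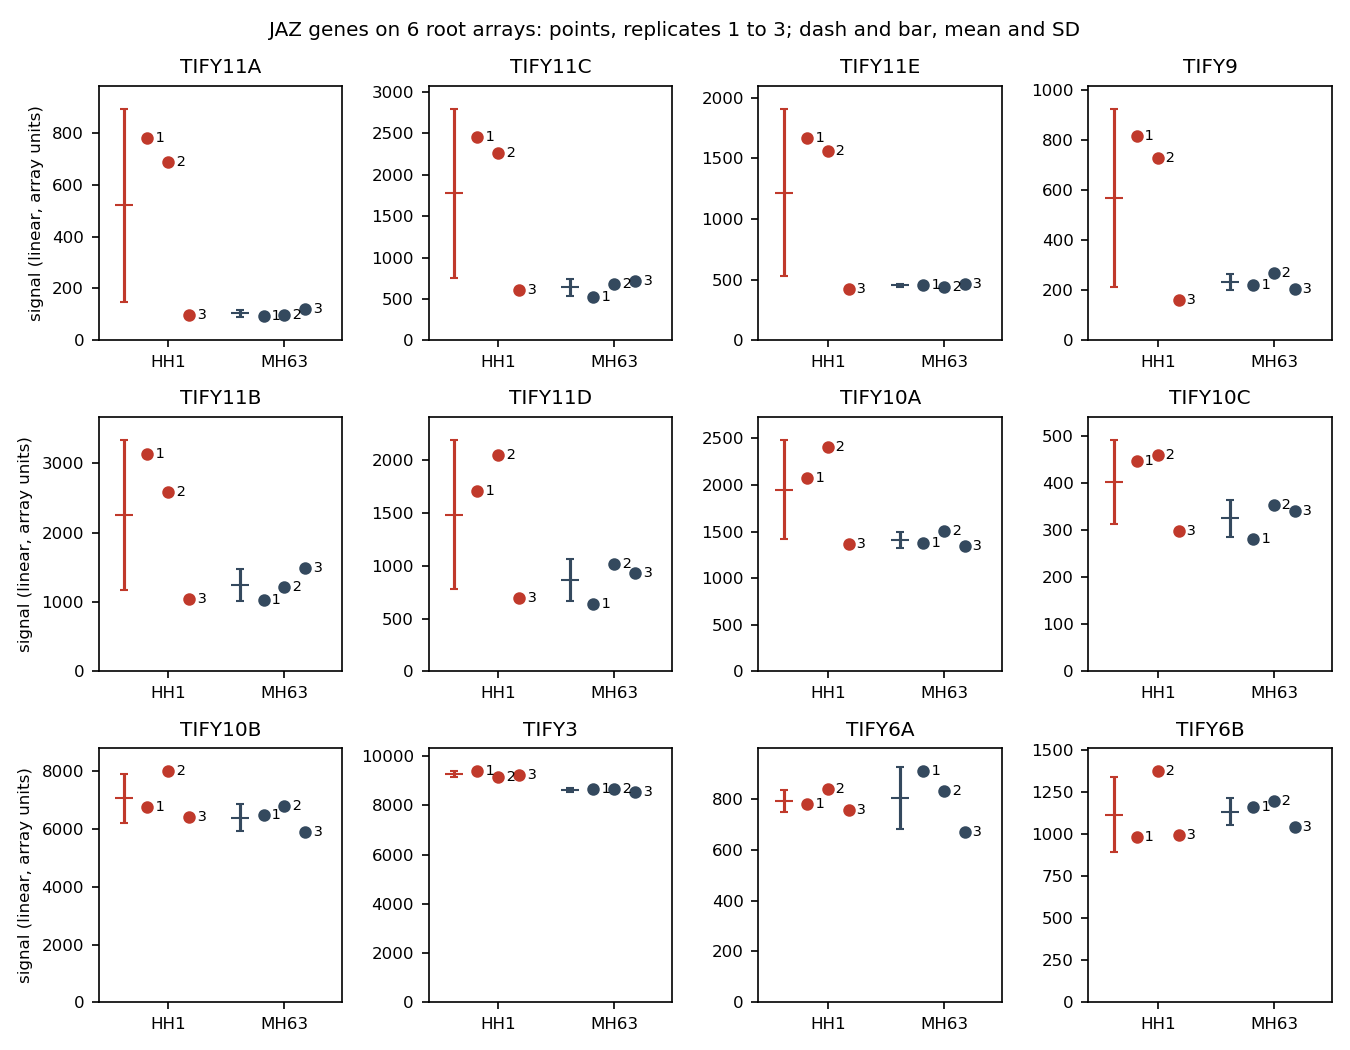
Signal of the 12 JAZ genes (linear scale from 0, array units, brightest probe set of each gene) in HH1 on the left and MH63 on the right of each panel, with points numbered by replicate and the mean ± SD of 3 arrays as a dash with bars. In TIFY11A, TIFY11C, TIFY11E, TIFY9, TIFY11B and TIFY11D, HH1 replicates 1 and 2 lie above all other arrays and HH1 replicate 3 lies near the MH63 arrays.

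The TIFY10 genes showed smaller steps. TIFY10A gave 2073, 2411 and 1370 in HH1, against 1381, 1507 and 1349 in MH63, from a probe set that can bind related transcripts. TIFY10C, a gene that the table also lists as JAZ9, gave 446, 459 and 298 in HH1, against 280, 353 and 341 in MH63. In both genes HH1 replicates 1 and 2 were the highest arrays and HH1 replicate 3 lay within the MH63 range. TIFY10B gave 6759, 8004 and 6409 in HH1, against 6494, 6808 and 5894 in MH63, and there HH1 replicate 1 was below MH63 replicate 2. The log2 differences were 0.43 ± 0.21 for TIFY10A, 0.29 ± 0.20 for TIFY10C and 0.14 ± 0.12 for TIFY10B (estimate ± standard error), with limma p of 0.082, 0.199 and 0.288 before adjustment.

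TIFY3, the gene also listed as EG2 for an extra-glume phenotype of the rice spikelet, was the steadiest of the 12. It gave 9385, 9164 and 9218 in HH1, against 8669, 8650 and 8531 in MH63. All HH1 arrays were above all MH63 arrays, and TIFY3 was the only JAZ gene whose groups did not overlap. HH1 was higher without overlap in 2.51% of the 14815 genes tested, and 1 gene of 12 is too few to be set apart from that share. The step was small, a log2 difference of 0.10 ± 0.080 (estimate ± standard error), with a limma p of 0.239 before adjustment.

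TIFY6A gave 779, 838 and 754 in HH1, against 908, 831 and 670 in MH63, so that all HH1 values fell inside the MH63 range. TIFY6B was read by a bright probe set that can bind related transcripts, with 982, 1376 and 995 in HH1, against 1162, 1195 and 1044 in MH63. A dimmer and specific probe set of TIFY6B gave 78.4, 66.1 and 51.8 in HH1, against 68.1, 75.3 and 75.7 in MH63. The highest array was HH1 replicate 2 in the bright probe set and HH1 replicate 1 in the dim one, and HH1 replicate 3 was below all MH63 arrays in both, as was HH1 replicate 1 in the bright one. The log2 differences were -0.01 ± 0.14 for TIFY6A and -0.04 ± 0.16 for the bright probe set of TIFY6B (estimate ± standard error), and the sign of each turned in some of the processing alternatives.

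Per array, the family can be set beside all genes by its distance from the MH63 mean of each gene on the log2 scale. In HH1 replicate 1 this distance was over 1 in 6 of 12 JAZ genes, where 1.92% of the 14815 genes reached it. In HH1 replicate 2 it was over 1 in the same 6 genes, where 4.00% of all genes reached it. In HH1 replicate 3 it was over 1 in 0 of 12, where 0.358% of all genes reached it. None of the 12 reached it on an MH63 array, where between 0.0405% and 0.695% of all genes did, although an MH63 array is part of the mean it is set against. The median distance of the JAZ genes was 0.78, 0.92 and -0.10 in HH1 replicates 1, 2 and 3, beside 0.01, -0.10 and -0.02 for all genes. In MH63 replicates 1, 2 and 3 the JAZ median was -0.04, 0.09 and 0.01.

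Among the 6 genes of wide spread, the distance ran from 1.01 in TIFY11D to 2.90 in TIFY11A in HH1 replicate 1. In HH1 replicate 2 it ran from 1.07 in TIFY11B to 2.72 in TIFY11A. In HH1 replicate 3 all 6 genes were below the MH63 mean, by 0.07 in TIFY11C to 0.51 in TIFY9. The other 6 genes stayed between -0.21 and 0.56 in HH1 replicate 1 and between 0.07 and 0.77 in HH1 replicate 2. HH1 replicates 1 and 2 were not ordered alike: HH1 replicate 1 was the higher in 6 of the 12 genes and HH1 replicate 2 in the other 6.

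**Figure D2:**
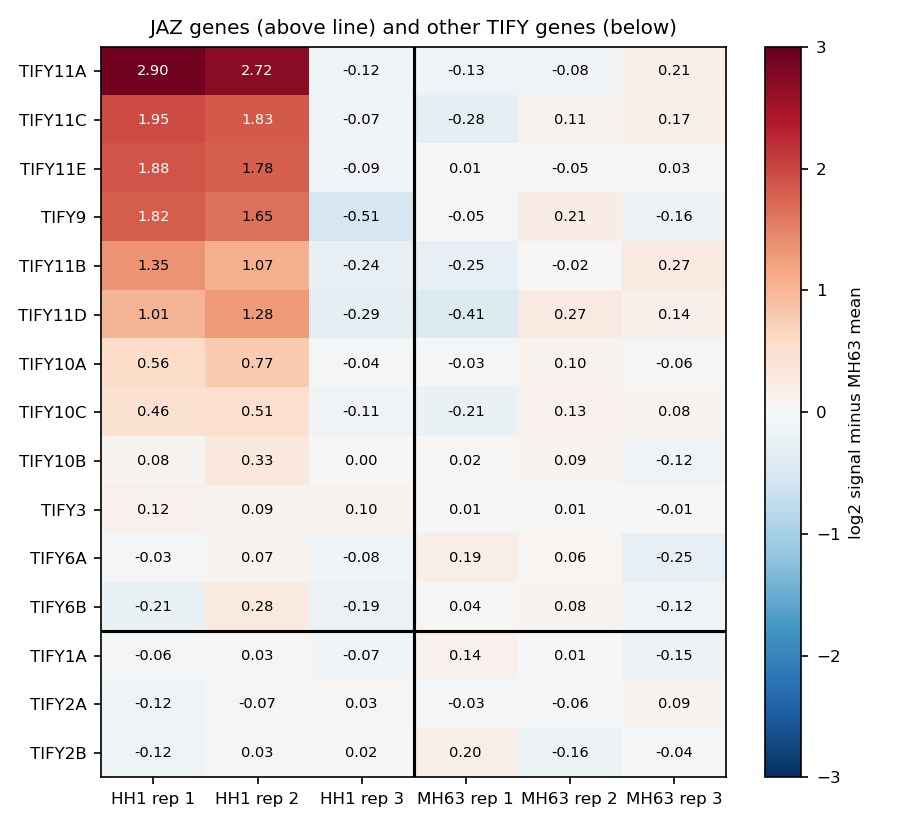
Log2 signal minus the MH63 mean of each gene (colour and printed value, scale from -3 to 3) for the 12 JAZ genes above the horizontal line and 3 other TIFY genes below it, with the HH1 arrays left of the vertical line and the MH63 arrays right of it. Red fields of over 1 appear in 6 genes in HH1 replicates 1 and 2, and in no gene in HH1 replicate 3 or on the MH63 arrays.

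HH1 replicates 1 and 2 were both above each of the other 4 arrays in 8 of 12 JAZ genes, where 7.59% of all genes had this order, and both were below the other 4 in 0 of 12, where 8.19% of all genes were. These are descriptions of the arrays as read, since the order was noticed in the JAZ genes themselves. Over all tested probe sets the arrays did not pair in this way. HH1 replicate 1 correlated with HH1 replicate 3 at 0.966 and with HH1 replicate 2 at 0.952, and HH1 replicates 2 and 3 correlated at 0.932, as Pearson values across probe sets, which are not independent replicates.

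Over the whole family the log2 difference was above 0 in 10 genes and below 0 in 2, with a median of 0.55, where 41.6% of the 14815 genes were above 0 with a median of -0.03. An unadjusted limma p under 0.05 was reached by 2 JAZ genes, TIFY11A and TIFY11E, where 4.00% of all genes reached it. The family values depended on which HH1 array was present. Leaving out HH1 replicate 1 gave a median log2 difference of 0.39, leaving out HH1 replicate 2 gave 0.31, and leaving out HH1 replicate 3 gave 0.90.

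Without HH1 replicate 3, 4 of the 12 genes passed at an adjusted p under 0.05 in limma, all higher in HH1, where 1.04% of 14847 genes were called higher. The log2 differences were then 2.81 ± 0.17 for TIFY11A, 1.89 ± 0.17 for TIFY11C, 1.83 ± 0.12 for TIFY11E and 1.74 ± 0.17 for TIFY9 (estimate ± standard error). The adjusted limma p were 0.0042 for TIFY11A, 0.0110 for TIFY11C, 0.0050 for TIFY11E and 0.0119 for TIFY9. TIFY11B, at 1.21 ± 0.19, missed the threshold with an adjusted limma p of 0.055. TIFY11D and TIFY10A each had an adjusted p of 0.130. When HH1 replicate 1 or HH1 replicate 2 was left out instead, no JAZ gene passed, and TIFY11A then had log2 differences of 1.30 ± 0.78 and 1.39 ± 0.79 (estimate ± standard error). HH1 replicate 3 is the HH1 array that lay near MH63 in these genes. Leaving it out therefore raises their difference and narrows their error by the choice of array, and the calls are no separate support. No label or record used here marks HH1 replicate 3 as faulty, so the comparison with all 6 arrays is the one reported.

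**Figure D3:**
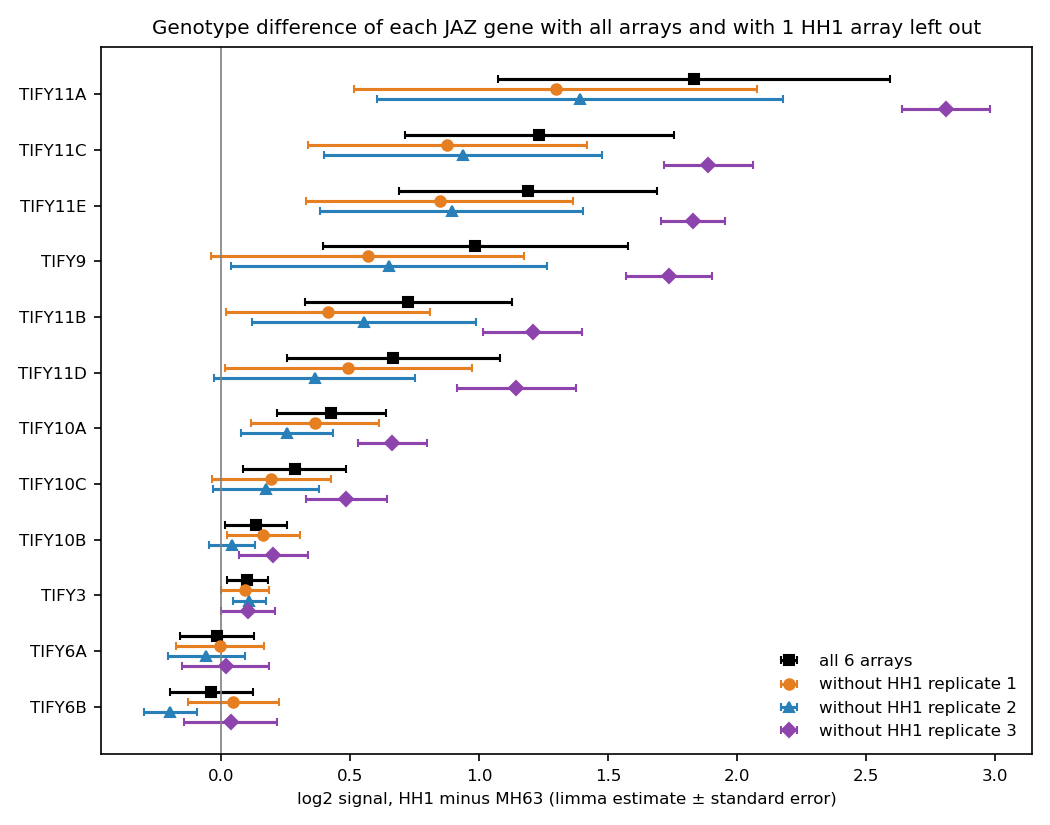
Log2 difference, HH1 minus MH63, of each JAZ gene (limma estimate ± standard error) with all 6 arrays and with 1 HH1 array left out. Leaving out HH1 replicate 3 moves TIFY11A to 2.81 and narrows its error to 0.17, while leaving out HH1 replicate 1 or 2 moves it to 1.30 or 1.39.

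The position of the genes was taken from the order of protein-coding genes in the rice reference annotation, which served for neighbourhood only. TIFY11A, TIFY11C and TIFY11B stand directly next to one another, and TIFY11E and TIFY11D are separated by 2 genes, for which no probe set was listed. Of the 5 protein-coding genes on each side of the first run, 7 were tested and 0 passed the test, and their distance from the MH63 mean in HH1 replicate 1 ran from -2.95 in LOC4331836 to 0.63. In HH1 replicate 2 it was over 1 in 1 of the 7, LOC4331836, named because of its values. That gene split arrays of both genotypes, with 9.01, 218 and 4.34 in HH1, against 181, 260 and 7.25 in MH63, and it was below the reporter level on 3 of the 6. Around TIFY11E and TIFY11D, 5 neighbours were tested and 0 passed. None was over 1 above the MH63 mean in HH1 replicates 1 or 2, and the lowest was -1.01, in LOC4348526 in HH1 replicate 1.

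**Figure D4:**
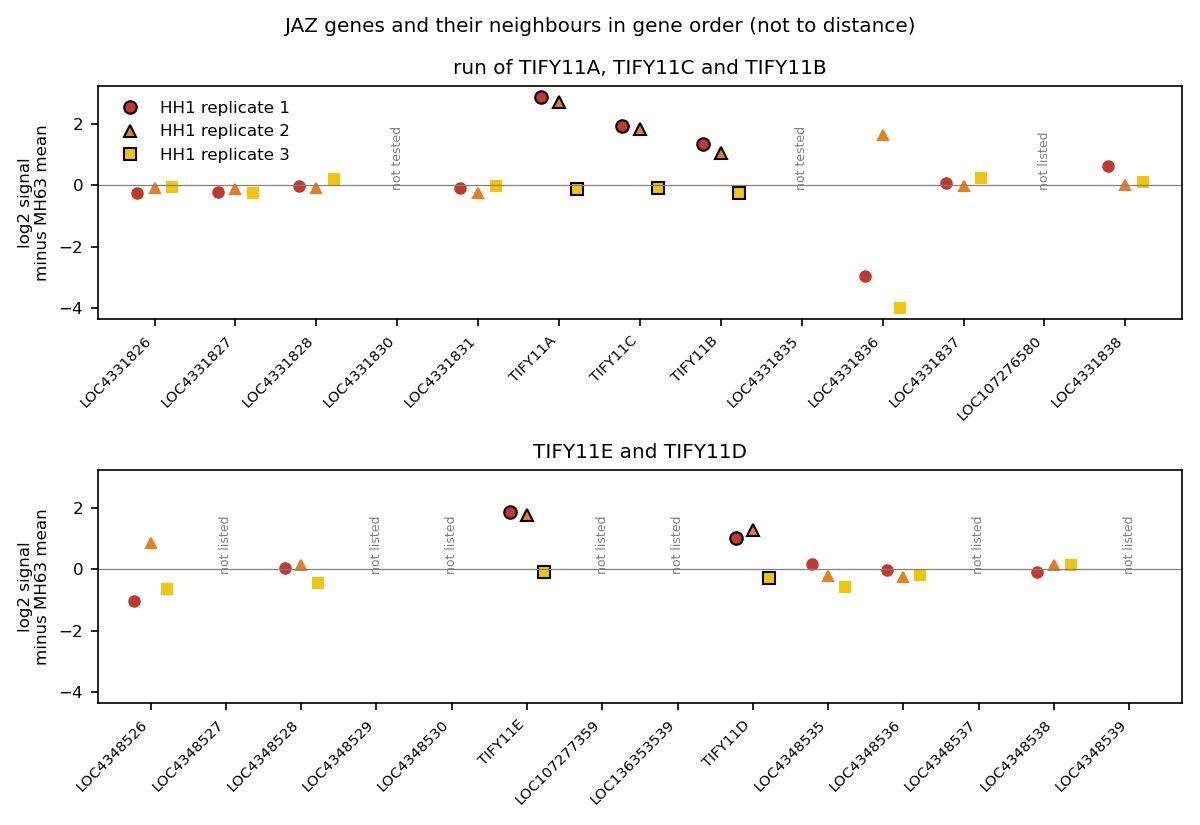
Log2 signal minus the MH63 mean for the 3 HH1 arrays, in gene order and not to distance, for the run of TIFY11A, TIFY11C and TIFY11B (top), for TIFY11E and TIFY11D (bottom) and for 5 genes on each side, with JAZ genes outlined in black (not listed, no probe set assigned; not tested, below the brightness limit). The JAZ genes stand over 1 in HH1 replicates 1 and 2, while of the tested neighbours only LOC4331836 does so, in HH1 replicate 2.

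Of the 6 remaining TIFY genes 3 were tested, and no probe set was listed for TIFY1B. The tested genes TIFY1A, TIFY2A and TIFY2B, which the gene table also lists as GATA factors and not as JAZ, had log2 differences of -0.04, -0.05 and -0.02. TIFY1A gave 543, 579 and 541 in HH1, against 625, 573 and 511 in MH63. TIFY8 stayed below the reporter level on every array, at 23.3 to 26.4 in HH1, against 23.1 to 26.7 in MH63. TIFY5, a JAZ gene known as JAZ2 that lies outside the listed numbers, read at most 5.67 in HH1, against at most 7.66 in MH63, which is below the reporter level on all 6 arrays.

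The receptors act on the JAZ proteins, and the co-repressors are recruited by them. In the list of perception and co-repression 7 genes were on the array and 6 were tested, of which 0 passed in either direction. Of the 6, 1 was above 0 and 5 below, with a median log2 difference of -0.12. The receptor COI1A gave 954, 1025 and 984 in HH1, against 1159, 1044 and 1010 in MH63. The receptor COI1B gave 1256, 1730 and 1406 in HH1, against 2013, 1693 and 1392 in MH63. COI2, the third receptor gene, gave 617, 556 and 566 in HH1, against 645, 619 and 619 in MH63. It was the only one of the 6 whose groups did not overlap, where HH1 was lower without overlap in 6.12% of all genes, and its log2 difference was -0.11. TPR1, a co-repressor of the Topless type, had a log2 difference of -0.14. The adaptor NINJA had 0.06, from a probe set that can bind related transcripts. ASP1, another gene of the Topless type, was not tested, and its probe set can bind related transcripts. It gave 17.3, 13.2 and 15.3 in HH1, below the reporter level on all 3 arrays, against 43.9, 35.3 and 35.8 in MH63, where only MH63 replicate 1 was above that level, so that no fold is given. In HH1 replicates 1, 2 and 3 the median distance of the 6 tested genes from the MH63 mean was -0.11, -0.06 and -0.12, so HH1 replicate 3 did not stand apart in that median.

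For the transcription factors of the pathway, the listed names led to only 3 genes, BHLH148, JAMYB and MYB4. MYC2 was in the list of names but was not read, so these genes cover the factors only in part. All 3 were tested and 0 passed, with 3 above 0 and a median of 0.19. The bHLH factor BHLH148, which binds JAZ proteins in rice, gave 737, 620 and 213 in HH1, against 229, 289 and 253 in MH63, and so followed the order of arrays of the TIFY11 genes. JAMYB gave 256, 510 and 244 in HH1, against 281, 315 and 319 in MH63, with HH1 replicate 2 alone above the MH63 arrays. MYB4 gave 2186, 1971 and 1117 in HH1, against 1364, 1524 and 1573 in MH63.

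In the list of jasmonate synthesis and turnover 17 genes were tested and 0 passed in either direction, with 13 above 0, 4 below and a median of 0.28. AOS1, an allene oxide synthase at the branch into jasmonate synthesis, gave 570, 484 and 196 in HH1, against 185, 186 and 184 in MH63. OPR7, the reductase of the later step in peroxisomes, gave 939, 848 and 754 in HH1, against 644, 741 and 696 in MH63. AOS1 and OPR7 were the tested genes of this list whose groups did not overlap, where HH1 was higher without overlap in 2.51% of all genes. LOX5, a lipoxygenase, gave 2969, 3877 and 2270 in HH1, against 2069, 2357 and 2202 in MH63. The log2 differences were 1.03, 0.28 and 0.43 for AOS1, OPR7 and LOX5, with limma p of 0.030, 0.061 and 0.066 before adjustment. OPR5 and LOX2 had log2 differences of 0.29 and 0.40. In HH1 replicate 1, 4 of the 17 genes were over 1 above the MH63 mean, where 1.92% of all genes were. In HH1 replicate 2, 5 of the 17 were, where 4.00% of all genes were. LOX8, LOX9 and AOS2, named because of their values, stood 3.21, 2.75 and 2.61 above that mean in HH1 replicate 1. Their distances were 3.27, 3.38 and 2.62 in HH1 replicate 2 and -2.34, -1.47 and -0.56 in HH1 replicate 3. LOX8 was below the reporter level in HH1 replicate 3.

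In the list of jasmonate response, which holds mostly enzymes of diterpenoid phytoalexins, 7 genes were tested and 0 passed, with 6 above 0, 1 below and a median of 1.42. MAS, momilactone synthase, gave 526, 471 and 60.5 in HH1, against 51.4, 107 and 99.0 in MH63. CPS4, the cyclase that feeds momilactone synthesis, gave 818, 1071 and 51.3 in HH1, against 48.3, 206 and 113 in MH63. DTS2, a diterpene synthase, gave 813, 828 and 26.2 in HH1, against 18.3, 75.8 and 64.1 in MH63. CPS2, another cyclase, gave 389, 418 and 10.6 in HH1, against 52.8, 122 and 14.1 in MH63. KSL7, also a diterpene synthase, gave 154 and 142 in HH1 replicates 1 and 2, with HH1 replicate 3 below the reporter level, against 26.3, 70.3 and 17.4 in MH63. In DTS2, CPS2 and KSL7, HH1 replicate 3 and at least 1 MH63 array were below the reporter level, so the size of their differences is uncertain. The list's median is the value of CPS2 itself and rests on such signals. The remaining genes of the list, PBZ1 and SALT, are not diterpenoid enzymes. PBZ1 gave 5427, 9833 and 366 in HH1, against 827, 6161 and 1928 in MH63, so MH63 replicate 2 was above HH1 replicate 1. SALT, the gene below 0, gave 13964, 17684 and 14632 in HH1, against 14935, 16633 and 16010 in MH63, and differed little between arrays.

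The response list and the JAZ genes differed on the MH63 arrays as read. The median distance of the response list from the MH63 mean was 2.69, 2.53 and -1.02 in HH1 replicates 1, 2 and 3 and -0.67, 0.99 and 0.02 in MH63 replicates 1, 2 and 3. It was over 1 in 3 of 7 response genes in MH63 replicate 2, where 0 of 12 JAZ genes were. Without HH1 replicate 3, 2 of 7 response genes (DTS2 and MAS), 1 of 17 synthesis genes (AOS1), 1 of 3 transcription factors (BHLH148) and 0 of 6 genes of perception passed in limma, each higher in HH1, where 1.04% of all genes were called higher. Their adjusted limma p were 0.039, 0.027, 0.012 and 0.021, and none passed when HH1 replicate 1 or 2 was left out instead. DTS2 was below the reporter level in MH63 replicate 1, which was part of that fit. In these called genes too the array left out was the HH1 array nearest to MH63, which narrows their error by that choice.

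As a set of repressors from other hormone pathways, the auxin repressors named IAA and the gibberellin repressor SLR1 were read in the same way. Of 24 tested genes 0 passed, 9 were above 0 and 15 below, and the median log2 difference was -0.06. None of them was over 1 above the MH63 mean on any array. Their median distance from that mean was 0.04, -0.23 and 0.02 in HH1 replicates 1, 2 and 3, so HH1 replicate 2 was the lowest. In HH1 replicate 2 the distance ran from -0.98 in IAA7 to 0.85 in IAA9. SLR1 gave 716, 478 and 581 in HH1, against 748, 670 and 812 in MH63, a log2 difference of -0.34.

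**Figure D5:**
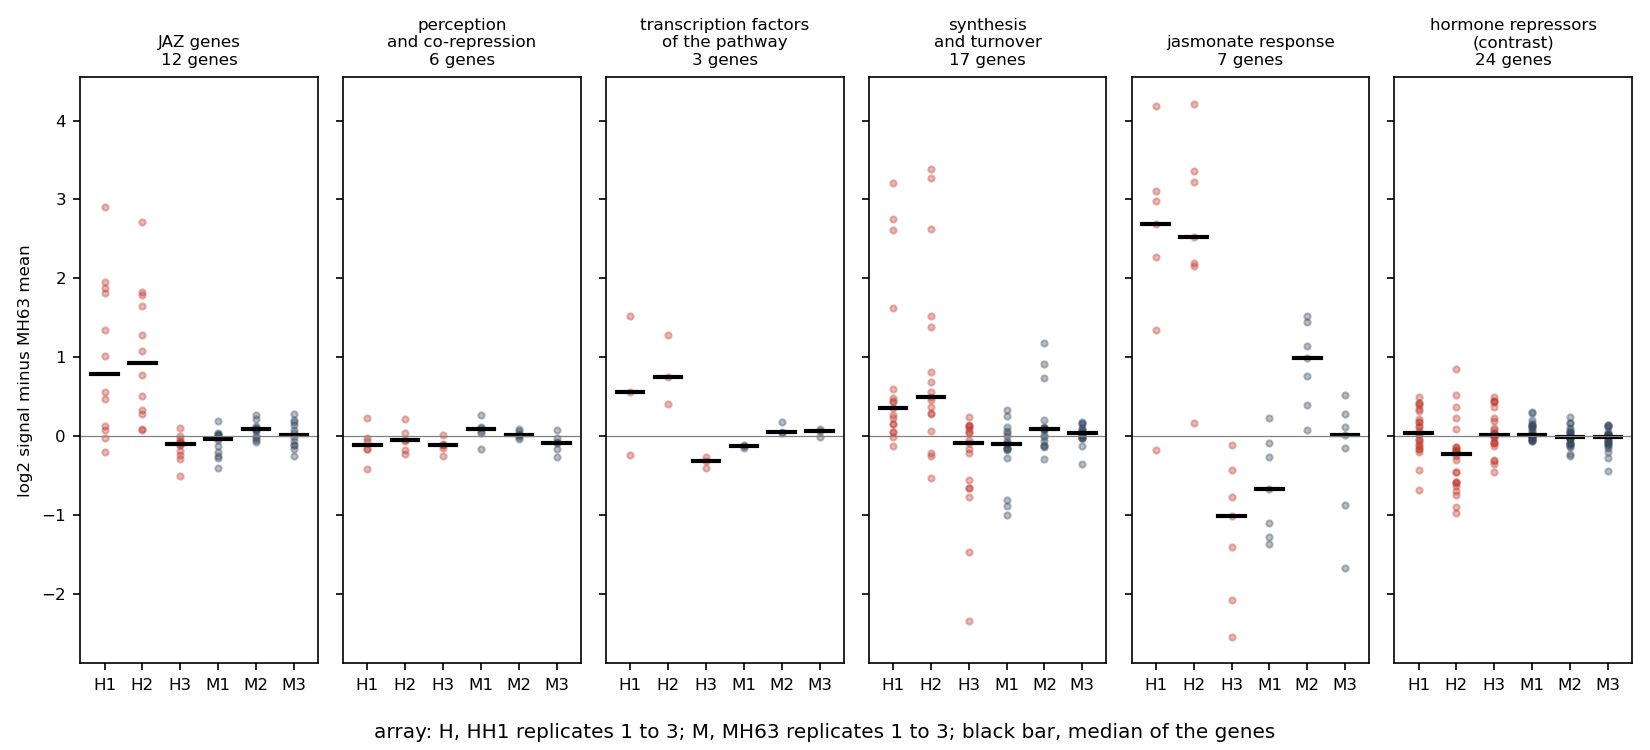
Log2 signal minus the MH63 mean of each tested gene (points) and the median (black bar) on the HH1 arrays (H1 to H3) and the MH63 arrays (M1 to M3), for the JAZ genes and 5 lists. The JAZ median is 0.78, 0.92 and -0.10 on H1 to H3, the response list reaches 0.99 on M2, and the perception list stays near 0.

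The named genes most like the JAZ genes in profile were ranked by Pearson's r over the 6 arrays with the mean of the 12 centred JAZ profiles. The 8 highest were GT43G, ABCG44, LOX2, ERG1, IAA20, ABCG37, BHLH148 and OsWRKY24, with r from 0.989 to 0.996. IAA20 belongs to the set of repressors from other hormone pathways, and gave 822, 835 and 582 in HH1, against 573, 602 and 573 in MH63. LOX2 and BHLH148 belong to the jasmonate lists. The value of r rests on HH1 replicates 1 and 2 standing above the rest, so it is given as a description without a p. ERG1 gave 550, 583 and 79.0 in HH1, against 108, 111 and 124 in MH63. OsWRKY24, a transcription factor of the WRKY class, gave 481, 426 and 56.3 in HH1, against 83.8, 91.9 and 99.6 in MH63. GT43G gave 138, 155 and 60.6 in HH1, against 63.4, 75.2 and 69.9 in MH63. The members themselves had r with that mean from 0.12 in TIFY6A to 0.99 in TIFY11C, and it was 0.65 in TIFY3. Each member is part of that mean, and the genes of wide spread weigh most in it, so a high r in them is partly built in.

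Signs of other material and of RNA preparation were read on the same arrays. The 18S ribosomal RNA probe set with the widest range read 811, 3446 and 961 in HH1, against 1144, 1457 and 1097 in MH63, so that only HH1 replicate 2 stood out. The summed signal of 6 green tissue markers was 582, 1577 and 516 in HH1, against 1931, 2040 and 506 in MH63, with 0 of 6 passing the test. Of 9 such markers on the array, CHLI read between 12.3 and 18.2 on all 6. The summed signal of 3 seed markers was 8515, 468 and 308 in HH1, against 540, 399 and 851 in MH63, so that only HH1 replicate 1 stood out. Each sum rested largely on few genes, with CAB2R at 1109 in HH1 replicate 2, and RAG2 at 3889 and RP5 at 4386 in HH1 replicate 1. Whether other material bears on the JAZ values was not tested. Of 5 seed markers on the array 2 glutelin genes were below the brightness limit and not tested. GLUA-1 was above the reporter level in HH1 replicate 1 alone. GLUA-3, described because of its values, gave 110, 157 and 51.6 in HH1, against 11.1, 9.59 and 6.86 in MH63, highest in HH1 replicates 1 and 2. It was above the reporter level on all 3 HH1 arrays, HH1 replicate 3 included, and below that level on all MH63 arrays. Its part in the JAZ values was not tested. Among 14 root markers on the array 12 were tested, and their summed signal was 18088 to 20357 in HH1, against 14963 to 21982 in MH63. The silicon transporter LSI1 gave 7013, 7463 and 8571 in HH1, against 8585, 4801 and 6600 in MH63. SCR1 and PT6 were below the brightness limit and not tested. SCR1 was below the reporter level on all 6 arrays, at 23.7 to 40.5 in HH1, against 29.9 to 34.3 in MH63. PT6 was above that level on 1 array alone, and HMA2, which was tested, on 5.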

How the data were processed

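Per the labels and the submitters' processing notes, the authors deposited 1 intensity per probe set, on a linear scale and named as MAS5 output, with no statement of the scaling between arrays. Its log2 was used as deposited. With 187 control probe sets set aside, the brighter 50% of 57194 probe sets by mean log2 intensity were tested in limma 3.58.1 (R 4.3.3; lmFit, eBayes with trend, two-sided), and p was adjusted by Benjamini-Hochberg over all 28597.

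Genes were matched by Entrez number and name to RefSeq's annotation of ASM3414082v1, and the brightest probe set stood for a gene. An ID ending in _s_at or _x_at marks possible binding of related transcripts. Lists were formed from gene names, and 3 matches to genes of another function were dropped. From each list up to 5 genes with the smallest p were to be named, and the 8 named genes of closest profile. No sequences were used here.

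The members, lists and tests were chosen with earlier results of these data known. Same-numbered arrays were not paired in the main fit, since the labels name no batch. Their deviations from the group means correlated at -0.12, 0.45 and 0.31 for replicates 1, 2 and 3. For HH1 replicates 2 and 3 the same-numbered MH63 array had the highest such correlation, and for HH1 replicate 1 it did not. These values cannot tell whether same-numbered arrays were handled together. Alternatives covered scaling, filter, offset, trend, array weights, a replicate block and each array left out. Figures were drawn with matplotlib 3.10.9.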

Additional observations from a re-analysis of the deposited data

How the results depend on the processing

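Over the whole array 32 probe sets were called. This count became 54 when no brightness filter was set and 8 when the brightest 25% alone were tested, which changes how many probe sets enter. It was 50 under array weights and 17 under a replicate block, and with 1 array left out it lay between 0 and 306; the cause was not tested. JAZ genes called numbered 0 under each setting with all 6 arrays, the replicate block included, and 0 to 4 with 1 array left out. The JAZ median log2 difference of 0.55 ran from 0.31 to 0.90 with 1 array left out, was 0.41 under array weights, and stayed at 0.55 for the 10 genes whose first number is listed, an alternative chosen after seeing the data. Called genes of the 4 jasmonate lists numbered 0, and 0 to 4 with 1 array left out. Signs turned in TIFY6A and TIFY6B alone. Under array weights TIFY6A read 0.0070, and with 1 array left out it ran from -0.14 (without MH63 replicate 3) to 0.081 (without MH63 replicate 1). TIFY6B ran from -0.20 (without HH1 replicate 2) to 0.048 (without HH1 replicate 1). With 3 arrays a group, a gene high on some HH1 arrays and not on others has a wide error, and a p over 0.05 does not show equal levels.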
